A study of Drosophila melanogaster with 4 samples.

Results

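The genes of the proteasome were followed in *Drosophila melanogaster* ovaries depleted of *aramis* or of *bam* in the germline. Members were every annotated gene whose FlyBase symbol starts with Prosalpha or Prosbeta, or with Rpn or Rpt and a number, which gave 48 of the 17023 genes in the count tables. Of these, 32 encode the general subunits, with 14 in the core particle (7 in the alpha ring and 7 in the beta ring) and 18 in the regulatory particle (10 in the base and 8 in the lid). The other 16 have symbols that end in T or R, with or without a number, and are referred to as copies. They comprise 5 alpha ring, 6 beta ring, 4 base genes and 1 lid gene. The members were chosen by name and not by their level.

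The proteasome is the protease that degrades most proteins marked with ubiquitin. Its core particle is a barrel in which outer alpha rings control entry and inner beta rings hold the protease sites, and its regulatory particle binds ubiquitin chains, removes them, unfolds the substrate with a ring of ATPases and feeds it into the barrel. Flies also carry copies of several subunit genes that are known mostly from the male germline, such as *Prosalpha6T*, which is needed to form functional sperm.

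Poly(A)-selected RNA from whole ovaries was sequenced in 2 libraries of the genotype *UAS-Dicer2;NosGAL4 > aramis RNAi* and 2 libraries of *UAS-Dicer2;NosGAL4 > bam RNAi*. All 4 libraries share the *UAS-Dicer2* transgene, which strengthens RNAi, and the *nos*GAL4 driver, which is active in germ cells, so the somatic cells of these ovaries were sequenced but not targeted. Females of both groups were yeast-fed and dissected between 1 and 3 days after eclosion. There was no library from an ovary without RNAi, so every difference is between the depletions. *bam* drives the daughters of germline stem cells to differentiate, and *aramis* is the labels' name for a DEAD-box helicase gene whose annotation symbol is *ais*. The labels do not say whether the libraries of a group came from separate flies, so p-values measure only the spread between these libraries.

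Reads assigned to genes numbered between 12977013 and 16754980 a library. Normalised counts, which are counts divided by the DESeq2 size factor of the library, came to 117 and 153 for *ais* in *aramis* RNAi against 910 and 323 in *bam* RNAi (log2 -2.19, SE 0.56, adjusted p = 0.00186 by the DESeq2 Wald test). For *bam* they were 50.3 and 72.7 in *aramis* RNAi against 60.0 and 70.4 in *bam* RNAi (-0.09, SE 0.69, adjusted p = 0.948), and with no ovary free of RNAi to set them against, these values do not check the second label. A fold change sets *aramis* RNAi over *bam* RNAi here and throughout. Of 16 germline marker genes, 12 were lower and none higher in *aramis* RNAi, with a median log2 fold change of -2.05, and their summed level was 994 and 1051 counts scaled to the library total (CPM) in *aramis* RNAi against 3444 and 4830 in *bam* RNAi. Of 9 muscle genes, 5 were higher (median 1.35), from 20271 and 17665 CPM in *bam* RNAi to 43480 and 44388 in *aramis* RNAi. Ovarian somatic markers had a median of 0.27 over 11 tested genes, with *Con* higher (1.31) and *tj* lower (-1.78), a summed level of 1673 and 2111 against 1944 and 1545 CPM, and *Sox100B* and *slbo* at or under 3 counts in every library. In RNA from whole ovaries, fewer germ cells and less RNA per germ cell cannot be told apart, and the part of cell makeup in the proteasome values was not tested.

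At an adjusted p under 0.05, 3 proteasome genes were lower in *aramis* RNAi and 0 were higher. The genes that fell were *Rpt3R* and *Rpt6R*, which are copies of ATPase genes of the base, and *Rpt5*, the general gene for another of the base ATPases. The other 34 members tested did not pass, and 11 copies had under 10 counts summed over the 4 libraries and were not tested. The 3 lower genes are 8.11% of the 37 tested members, where 7.04% of all 11128 genes tested were called lower and 8.90% higher, so the share of members called lower was close to that of all genes. No member was higher at an unadjusted p under 0.05 either, and the edgeR quasi-likelihood test called none higher, although germline marker scaling, which moved the median log2 fold change of all genes to 1.85, gave 29 higher and 0 lower. Past a 4-fold difference as well, *Rpt3R* and *Rpt6R* remained, which is 5.41% of the members beside 3.25% of all genes. On simulated counts with these depths, 79% of 4-fold and 12% of 2-fold changes were recovered, so a 2-fold difference would mostly be missed. The simulation held 11128 genes, and the changed ones were drawn only from genes above a minimum mean count. *Prosalpha1* and the copies other than *Rpt3R* lie below that minimum, so these shares do not cover them.

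The core particle, which holds the proteolytic chamber, had a median log2 fold change of 0.06 over its 14 general genes, which became -0.32 with total-count and 2.06 with germline marker scaling. With the DESeq2 size factors, 9 lay above 0 and 5 below, and none passed the test. The beta ring had a median of 0.17 (range 0.02 to 0.44) and the alpha ring a median of -0.21 (range -0.40 to 0.20). Leaving out 1 library turned both signs. The beta ring median was -0.28 without the first *bam* RNAi library and 0.82 without the second, and the alpha ring median was -0.30 and 0.57.

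Among the beta ring genes are the 3 that carry the protease sites. *Prosbeta2*, the trypsin-like site and on average the most abundant member per length of transcript, had 5903 and 4045 normalised counts in *aramis* RNAi against 2693 and 5581 in *bam* RNAi (log2 fold change 0.27, SE 0.47, DESeq2 adjusted p = 0.751). *Prosbeta5*, the chymotrypsin-like site, had 5657 and 3757 against 2713 and 6277 (0.07, adjusted p = 0.944). *Prosbeta1*, the caspase-like site, had 2681 and 1673 against 984 and 2581 (0.29, adjusted p = 0.754). In all 3 the first *bam* RNAi library was the lowest of the 4 libraries, and the groups overlapped. The beta ring gene with the highest fold change was *Prosbeta6*, a subunit without a protease site, with 4993 and 3836 against 2039 and 4489 (0.44, SE 0.48, adjusted p = 0.575), and that with the lowest was *Prosbeta4*, another such subunit, with 2528 and 2144 against 1544 and 3079 (0.02, adjusted p = 0.987). Both again had their lowest value in the first *bam* RNAi library and their groups overlapped.

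The alpha ring genes encode the gate of the barrel and the surface on which the regulatory particle docks. *Prosalpha2*, the most abundant of them per length, had 4444 and 3159 normalised counts in *aramis* RNAi against 2130 and 4599 in *bam* RNAi (0.18, adjusted p = 0.840). *Prosalpha5*, with the highest fold change, had 3298 and 2029 against 1382 and 3270 (0.20, SE 0.50, adjusted p = 0.830). *Prosalpha4*, with the lowest, had 2072 and 1684 against 1240 and 3712 (-0.40, SE 0.52, adjusted p = 0.647). In all 3 the first *bam* RNAi library was the lowest, and for *Prosalpha2* and *Prosalpha4* the second was the highest, with the *aramis* RNAi libraries between them. *Prosalpha3* (1491 and 1509 against 1907 and 1549) and *Prosalpha6* (1615 and 1484 against 2066 and 1918) were the only core genes with both *aramis* RNAi libraries below both *bam* RNAi libraries. The remaining core genes, *Prosalpha7* (-0.21), *Prosbeta3* (0.17) and *Prosbeta7* (0.06), overlapped between groups.

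*Prosalpha1* stood apart from the rest of the general genes, with 10 and 8 reads in *aramis* RNAi against 6 and 18 in *bam* RNAi (-0.22, SE 1.43, adjusted p = 0.938). Its copy *Prosalpha1R* lies 1734 bases away on the same strand of chromosome 2R and had 2 reads in the first *aramis* RNAi library and 0 in the others. How alike the 2 sequences are, and whether the counting split or left out reads that match both, was not tested. The values of this pair are therefore uncertain, and *Prosalpha1* is left out of levels per kilobase.

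**Figure D1:**
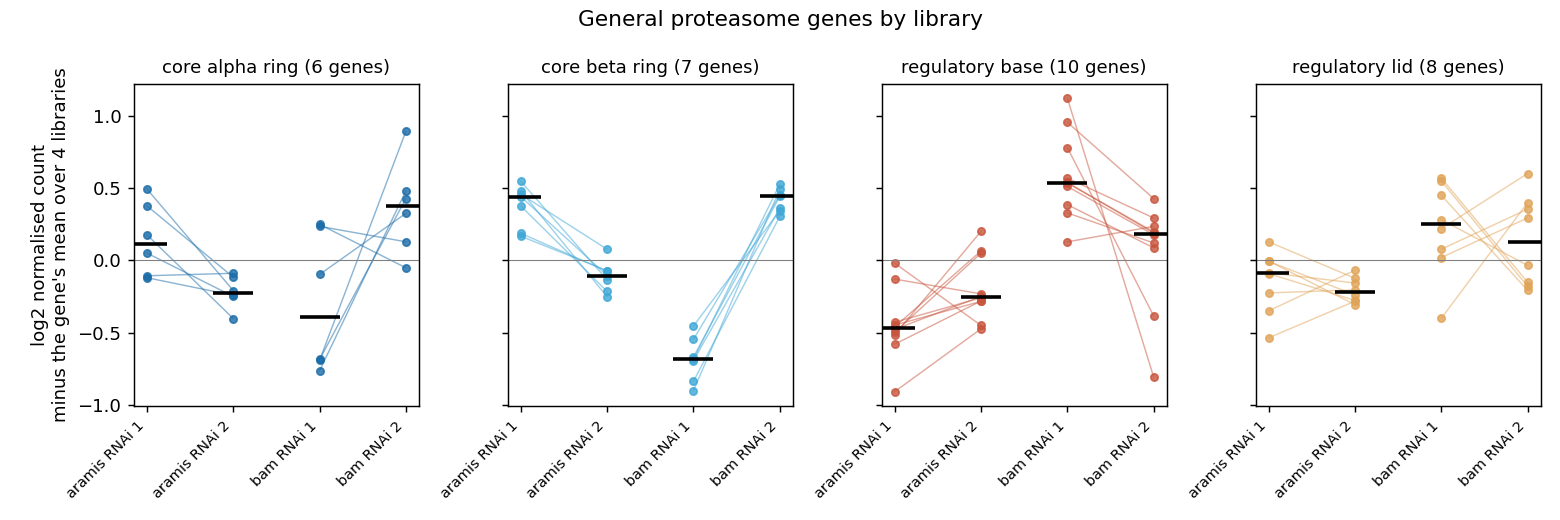
Log2 normalised count of each general gene minus its own mean over the 4 libraries, for 31 genes (without *Prosalpha1*) in panels for the alpha ring, beta ring, base and lid, with the points of a gene joined within each group and black bars at the median. All 7 beta ring genes are lowest in the first *bam* RNAi library, and most base genes are lower in both *aramis* RNAi libraries than in both *bam* RNAi libraries (8 of 10).

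All 18 general genes of the regulatory particle had fold changes below 0, with a median of -0.46 (range -1.39 to -0.05), and 1 of them, *Rpt5*, passed the test. Over all genes tested the median was -0.09 and 52.8% lay below 0. The base, with a median of -0.63 over 10 genes, was further below 0 than the lid, with a median of -0.36 over 8 genes. These directions hold relative to the other genes of a library rather than in absolute terms, because scaling the libraries to their germline markers put all 18 above 0. Scaling to total counts moved the median of all genes to -0.45 and left all 18 below 0. The count also depended on single libraries, with 14 of 18 below 0 without the first *bam* RNAi library. It was 17 without the second *bam* RNAi library, 17 without the second *aramis* RNAi library and 18 without the first. Set against the median of all genes, the regulatory particle lay at -0.37 with the DESeq2 size factors, -0.41 with germline marker scaling and -0.36 with total-count scaling, and the core particle at 0.15, 0.21 and 0.13. A change of scaling shifts all genes nearly alike, so these values are close by construction. Without the first *bam* RNAi library the regulatory particle lay at -0.39 and the core at -0.27 against that median, and without the second at -0.70 and 0.68.

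In 11 of the 18 regulatory genes (61.1%) both *aramis* RNAi libraries were below both *bam* RNAi libraries, which 30.3% of all tested genes also showed. In the core particle this held for 2 of 14 (14.3%), and over all 32 general genes for 13 (40.6%). No general gene had both *aramis* RNAi libraries above both *bam* RNAi libraries, an order that 27.4% of all genes had. In the base, the exceptions to the lower order were *Rpn1* and *Rpt2*, and in the lid only *Rpn3*, *Rpn5* and *Rpn11* showed it.

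The 6 Rpt genes encode the ATPases that unfold substrates, and their median was -0.65. *Rpt5* (FBgn0028684, chromosome 3R, 23752876 to 23754623 on the plus strand of dm6) had 527 and 712 normalised counts in *aramis* RNAi against 1913 and 1328 in *bam* RNAi. Both *aramis* RNAi libraries lay well under both *bam* RNAi libraries, and the means of 619 ± 131 and 1620 ± 414 (SD, n = 2) put *aramis* RNAi at 38.2% of *bam* RNAi. On the log2 scale the difference was -1.39 (SE 0.44, 95% interval -2.25 to -0.52, DESeq2 adjusted p = 0.0151). This call depended on the test, since edgeR gave an adjusted p of 0.0570 for a fold change of -1.40. It was also lost without either *aramis* RNAi library (adjusted p = 0.447 without the first and 0.154 without the second), and it was kept without either *bam* RNAi library. With germline marker scaling the fold change was 0.51 (adjusted p = 0.373). An exon of *Rpt5* overlaps *Hrd3* on the opposite strand, and whether the counting used strand is not given in the sources used here. *Hrd3*, a gene of an endoplasmic reticulum ubiquitin ligase complex, had 864 and 1478 against 1492 and 784 (0.04, adjusted p = 0.966), an order unlike that of *Rpt5*.

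The remaining ATPase genes differed by less. *Rpt6* had 723 and 810 normalised counts in *aramis* RNAi against 1427 and 1130 in *bam* RNAi (-0.74, adjusted p = 0.225), and *Rpt1* had 1154 and 1352 against 2333 and 1831 (-0.73, adjusted p = 0.221). *Rpt3* had 1186 and 880 against 1570 and 1277 (-0.46, adjusted p = 0.497). *Rpt4*, the base gene with the highest fold change and the most abundant of the base genes per length, had 1746 and 1626 against 2087 and 2247 (-0.36, adjusted p = 0.580). In these 4 genes the groups did not overlap, but no difference passed the test. In *Rpt2*, 744 and 1221 against 2309 and 608, the second *bam* RNAi library was the lowest of all and the groups overlapped.

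The other base genes encode scaffolds and ubiquitin receptors. *Rpn10*, a receptor for ubiquitin chains, had 633 and 778 against 1401 and 1157 (-0.86, SE 0.42, unadjusted p under 0.05, DESeq2 adjusted p = 0.147). *Rpn13*, a further receptor, had 1065 and 1197 against 2039 and 1619 (-0.69, adjusted p = 0.249). The scaffold gene *Rpn1* had 1944 and 2796 against 4585 and 2049 (-0.48, adjusted p = 0.536), where the first *bam* RNAi library was high and the groups overlapped. The scaffold gene *Rpn2* had 2589 and 3780 against 4583 and 3969 (-0.43, adjusted p = 0.527), without overlap.

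The lid removes ubiquitin from bound substrates. *Rpn11*, its deubiquitinase, had 1672 and 1696 normalised counts in *aramis* RNAi against 2060 and 2496 in *bam* RNAi (-0.44, adjusted p = 0.501). *Rpn5*, a structural subunit and the lid gene with the lowest fold change, had 1884 and 2245 against 3177 and 4137 (-0.82, SE 0.41, adjusted p = 0.153). Neither overlapped between groups, and neither passed the test. *Rpn9*, another structural subunit and the most abundant lid gene per length, had 4261 and 3580 against 2954 and 5139 (-0.05, adjusted p = 0.957). Its first *bam* RNAi library was the lowest and its second the highest, as in *Prosalpha2* and *Prosalpha4* but not in every core gene. *Rpn12*, a subunit needed for assembly of the lid with the base in yeast, had 589 and 561 against 854 and 542 (-0.28, adjusted p = 0.720), and *Rpn8*, the partner of *Rpn11*, had 2144 and 2605 against 4051 and 2459 (-0.46, adjusted p = 0.517). Both overlapped, with the first *bam* RNAi library high. The remaining lid genes were *Rpn3* (-0.31), *Rpn6* (-0.41) and *Rpn7* (-0.25), of which only *Rpn3* did not overlap between groups.

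**Figure D2:**
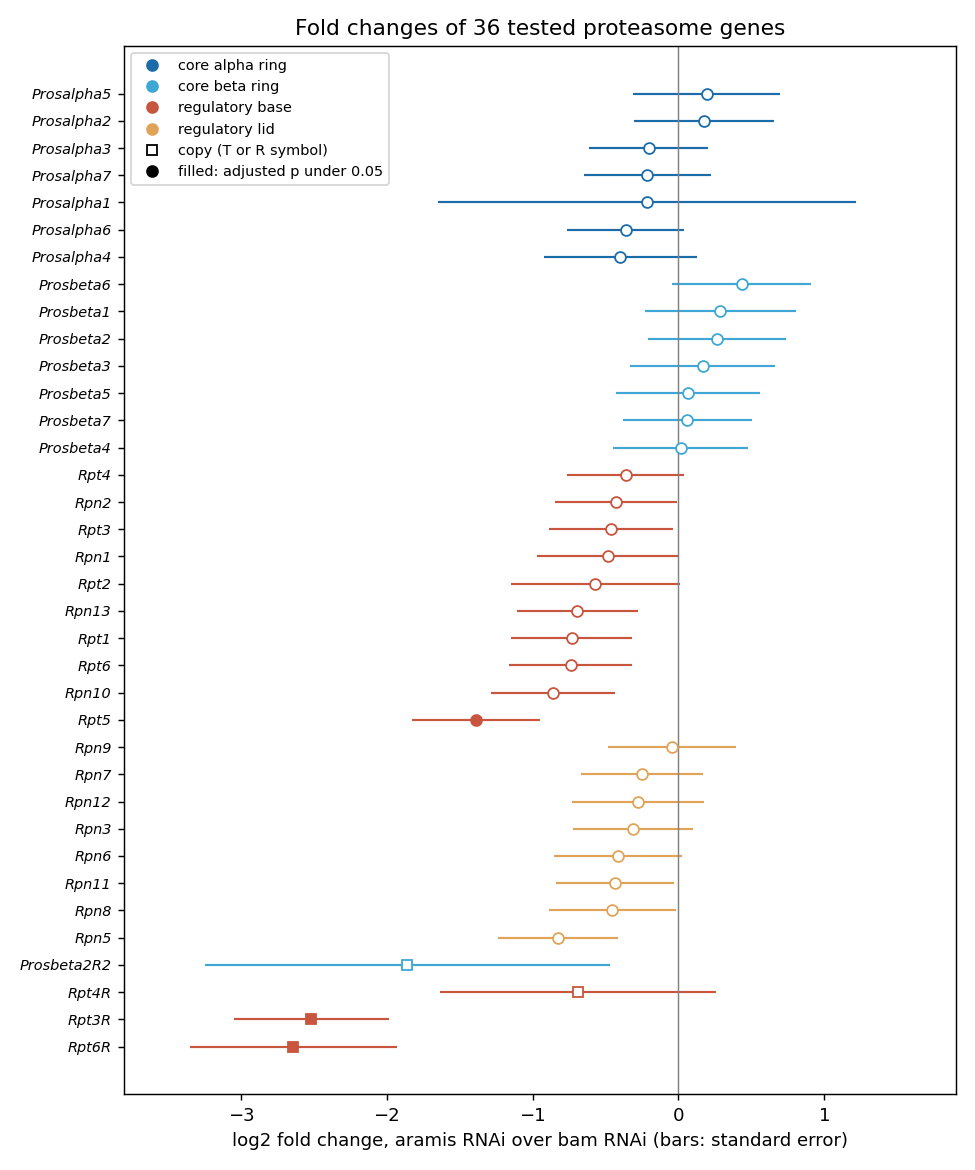
Log2 fold change, *aramis* RNAi over *bam* RNAi, with bars of 1 standard error, for 36 tested proteasome genes with the DESeq2 size factors. The filled symbols at -1.39 (*Rpt5*), -2.52 (*Rpt3R*) and -2.64 (*Rpt6R*) passed an adjusted p of 0.05. All 18 general regulatory genes lie left of 0, which reverses with germline marker scaling, and 14 of 18 do without the first *bam* RNAi library. *Rpn12R* is not drawn because it had 0 counts in both *aramis* RNAi libraries.

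How far the particles lay apart depended on which *bam* RNAi library was used. Against the first *bam* RNAi library, the median log2 ratio of the 14 core genes was 0.90 in the first and 0.46 in the second *aramis* RNAi library, and that of the 18 regulatory genes was -0.79 and -0.68. Against the second *bam* RNAi library, the core medians were -0.10 and -0.58 and the regulatory medians -0.33 and -0.45. The core therefore exceeded the regulatory particle by 1.69 and 1.13 on the log2 scale in the first case and by 0.23 and -0.13 in the second. The regulatory particle was below 0 in all 4 pairs of libraries, whereas the core changed sign. In fits without 1 library, the core median ran from -0.28 without the first *bam* RNAi library to 0.69 without the second, and the regulatory median from -0.40 to -0.69.

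**Figure D3:**
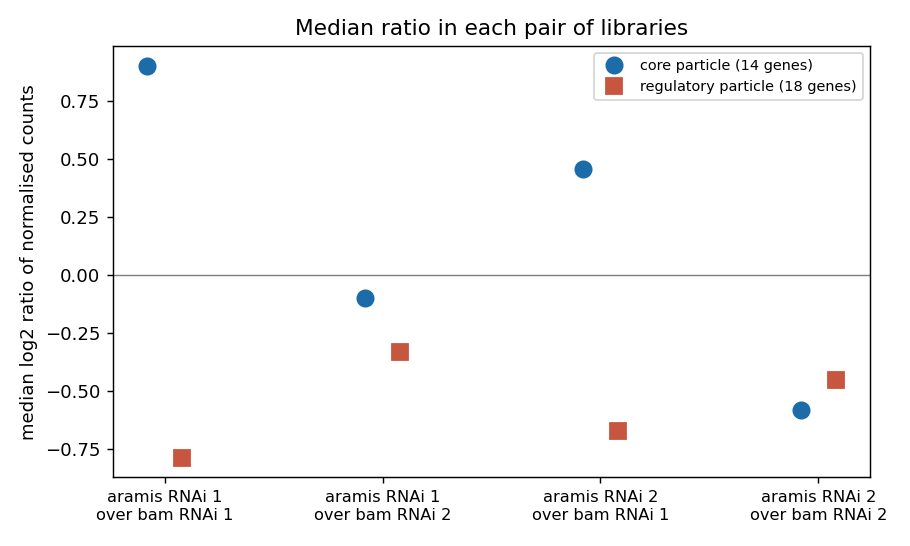
Median log2 ratio of normalised counts of the 14 core and 18 regulatory general genes for each of the 4 pairs of 1 *aramis* RNAi and 1 *bam* RNAi library. The core median runs from 0.90 to -0.58 and follows the *bam* RNAi library, and the regulatory median stays between -0.79 and -0.33.

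The core genes also differed between replicates. Leaving out *Prosalpha1*, 11 of 13 core genes were lower in the first than in the second *bam* RNAi library, with a median 2.16-fold difference, and *Prosalpha4* differed 2.99-fold (1240 and 3712). The exceptions were *Prosalpha3* and *Prosalpha6*. Of the regulatory genes 5 of 18 were lower in the first *bam* RNAi library, with a median log2 ratio of the first over the second of 0.32, against -1.11 for the core. This came from the base, where 1 of 10 was lower (median 0.33), while the lid was split with 4 of 8 lower (median 0.02). In *aramis* RNAi the same ratios were 0.49 for the core, -0.26 for the base and 0.13 for the lid, with -0.17 for the whole regulatory particle. Over the 7868 genes that averaged 50 counts or more the medians were -0.04 in *bam* RNAi and -0.01 in *aramis* RNAi. The size factors hold these medians near 0 by construction, so they do not show whether the core ratios are unusual. Opposite deviations of same-numbered libraries also ran through the other genes, with a correlation of -0.54 over 7883 genes.

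The core transcripts are short, with 815 to 1215 bases and a median of 971, against 995 to 3412 and a median of 1534 in the regulatory particle and a median of 1847 over genes with at least 10 counts. Over the 31 general genes without *Prosalpha1*, transcript length had a Spearman correlation of 0.62 with the replicate ratio in *bam* RNAi, -0.67 with that in *aramis* RNAi and -0.73 with the fold change. These points share their libraries and are a description only. After offsets that removed the trend with length in each library, the core genes still differed 1.86-fold between the *bam* RNAi libraries. The same number of general genes (13 of 32) had both *aramis* RNAi libraries below both *bam* RNAi libraries, but *Prosalpha7* joined them and *Prosalpha3* no longer did. With these offsets the median log2 fold change was 0.02 for the core and -0.51 for the regulatory particle, beside 0.06 and -0.46 without them.

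**Figure D4:**
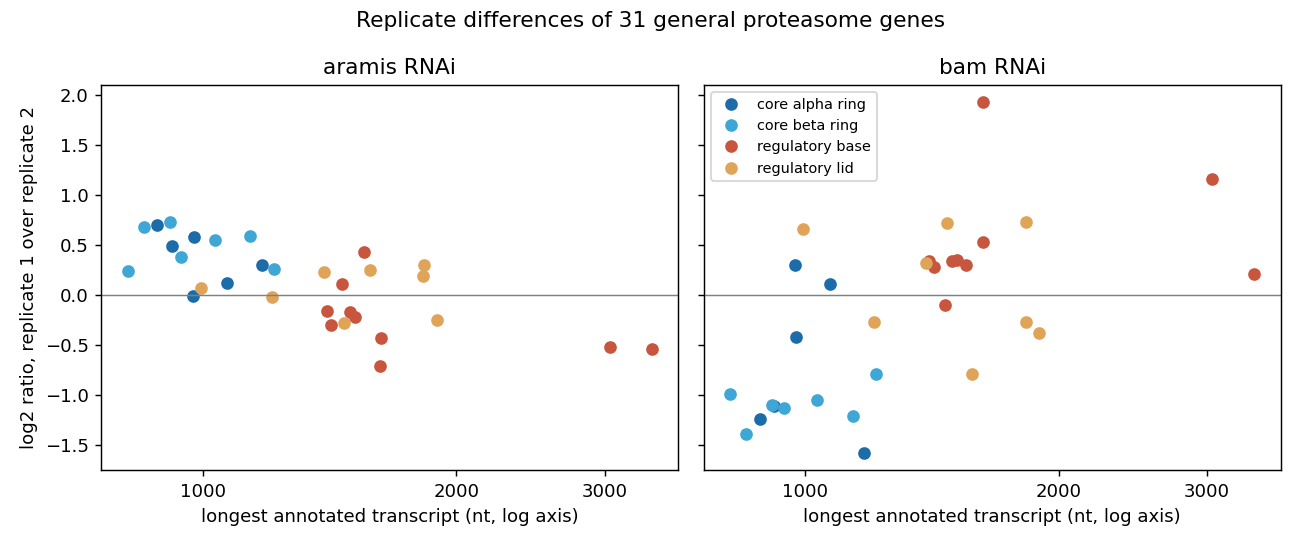
Log2 ratio of replicate 1 over replicate 2 for 31 general proteasome genes, plotted against the length of the longest transcript in bases (log axis), separately in *aramis* RNAi and *bam* RNAi. In *bam* RNAi the core genes, which are the shorter ones, centre on -1.11 and the regulatory genes on 0.32, and in *aramis* RNAi the order is the opposite, with medians of 0.49 and -0.17.

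Levels were compared between genes as counts per kilobase of the longest transcript scaled to the total of assigned counts (RPKM). Over the 31 general genes the median RPKM was 80.4 and 83.6 in *aramis* RNAi against 108 and 132 in *bam* RNAi, where the median of all detected genes was 8.14 and 9.32 and 10.8 and 9.50. Ranked by mean RPKM, the highest were *Prosbeta2* (296), *Prosbeta5* (274), *Prosbeta6* (271) and *Prosalpha2* (263), whose ranges over the 4 libraries overlap, and the lowest were *Rpt5* (48.9), *Rpn10* (48.8) and *Rpn12* (43.6), whose ranges also overlap. The first *bam* RNAi library had the most even levels, with a 3.20-fold span from *Rpn12* to *Rpn8*, against spans of 17.6-fold and 9.29-fold in *aramis* RNAi and 14.7-fold in the second *bam* RNAi library. The gene with the lowest RPKM was *Rpt5* in both *aramis* RNAi libraries, at 18.8 and 26.4, and *Rpn12* (62.9) and *Rpt2* (29.5) in the *bam* RNAi libraries. The ratio of the median core RPKM (13 genes) to the median regulatory RPKM was 4.07 and 2.43 in *aramis* RNAi against 1.43 and 3.12 in *bam* RNAi, and overlapped between groups. In total the general genes took 0.405% and 0.364% of all counts in *aramis* RNAi against 0.488% and 0.647% in *bam* RNAi.

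Together the copies had 124 and 117 counts in *aramis* RNAi against 450 and 924 in *bam* RNAi, which is 0.182% and 0.207% against 0.706% and 0.958% of all proteasome counts. Most of these counts came from *Rpt3R* (63 and 79 against 288 and 641) and *Rpt6R* (21 and 20 against 77 and 217). The sum therefore does not stand for the other copies. Of the 16, 7 had 0 counts in every library, namely *Prosalpha3T*, *Prosalpha4T1*, *Prosalpha6T*, *Prosbeta2R1*, *Prosbeta4R1*, *Prosbeta4R2* and *Prosbeta5R2*. The remaining 9 had at least 1 count, and 8 had over 3 counts in at least 1 library. The copies are compact genes, with 12 of 16 made of 1 or 2 exons, and 6 without an intron beside 4 of the 32 general genes.

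*Rpt3R* (FBgn0037742, chromosome 3R, 9754735 to 9756510 on the minus strand) is a copy of the ATPase gene *Rpt3* and was the most abundant copy. It had 63 and 79 counts in *aramis* RNAi against 288 and 641 in *bam* RNAi, or 64.7 and 84.4 against 303 and 550 normalised counts. Both *aramis* RNAi libraries were far below both *bam* RNAi libraries, with means of 74.6 ± 13.9 and 427 ± 175 (SD, n = 2), a 5.72-fold difference. On the log2 scale the difference was -2.52 (SE 0.53, 95% interval -3.56 to -1.48, DESeq2 adjusted p = 0.000107, edgeR adjusted p = 0.00837). The call was lost without the first *aramis* RNAi library (adjusted p = 0.0992) and with germline marker scaling (-0.54, adjusted p = 0.417). *Rpt3R* overlaps an exon of *Alg12*, a mannosyltransferase gene on the opposite strand, whose 585 and 606 against 864 and 322 normalised counts gave a fold change of 0.01 (adjusted p = 0.994). Per kilobase, *Rpt3R* stood at 5.92% and 10.4% of *Rpt3* in *aramis* RNAi and at 20.9% and 46.7% in *bam* RNAi. This within-library ratio does not depend on the scaling of libraries, and its groups did not overlap.

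*Rpt6R* (FBgn0039788, chromosome 3R, 30582198 to 30583697 on the minus strand) is a copy of the ATPase gene *Rpt6* and overlaps no annotated gene. It had 21 and 20 counts in *aramis* RNAi against 77 and 217 in *bam* RNAi, or 21.6 and 21.4 against 81.0 and 186 normalised counts. The *aramis* RNAi libraries were close to each other, and both lay below both *bam* RNAi libraries, which differed more than 2-fold. The difference was 6.23-fold, with a log2 fold change of -2.64 (SE 0.71, 95% interval -4.04 to -1.25, DESeq2 adjusted p = 0.00327, edgeR adjusted p = 0.0158). The call was lost without the first *aramis* RNAi library (-2.62, adjusted p = 0.161), without the second (-2.61, adjusted p = 0.0894), without the second *bam* RNAi library (-1.93, adjusted p = 0.220), and with germline marker scaling (-0.64, adjusted p = 0.504). Without the first *bam* RNAi library it was kept (adjusted p = 0.00557). Per kilobase, *Rpt6R* stood at 2.90% and 2.56% of *Rpt6* in *aramis* RNAi and at 5.52% and 16.0% in *bam* RNAi, again without overlap.

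*Rpt4R*, the third ATPase copy, did not follow. It had 30 and 16 counts in *aramis* RNAi against 54 and 24 in *bam* RNAi (-0.69, SE 0.95, adjusted p = 0.664), or 1.72% and 1.03% against 2.66% and 0.894% of *Rpt4* per kilobase. The groups overlapped, and the interval of -2.54 to 1.17 includes differences as large as those of *Rpt3R*, so a difference among the 3 copies is not shown. With germline marker scaling the fold change of *Rpt4R* was 1.17 (adjusted p = 0.317).

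**Figure D5:**
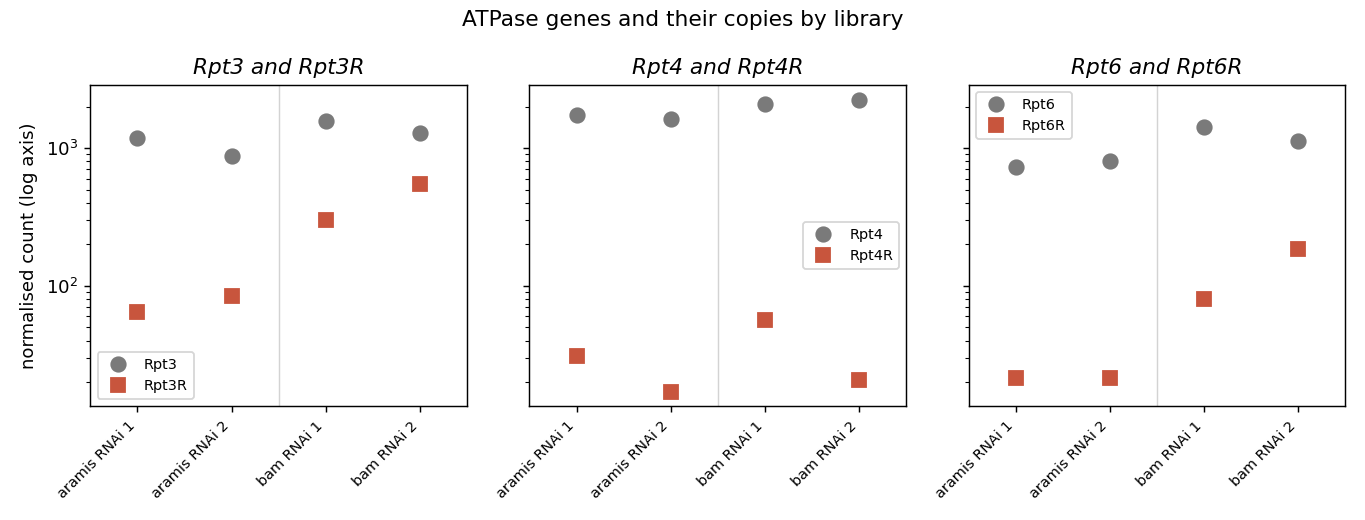
Normalised counts (log axis) of *Rpt3R*, *Rpt4R* and *Rpt6R* beside the general genes *Rpt3*, *Rpt4* and *Rpt6* in the 4 libraries. *Rpt3R* goes from 64.7 and 84.4 in *aramis* RNAi to 303 and 550 in *bam* RNAi, while *Rpt3* goes from 1186 and 880 to 1570 and 1277.

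The other copies gave few reads. *Prosbeta2R2*, a copy of the gene for the trypsin-like site, had 8 and 2 counts in *aramis* RNAi against 17 and 23 in *bam* RNAi (-1.86, SE 1.39, adjusted p = 0.384, and 0.09 with germline marker scaling), which is 0.109% and 0.0414% against 0.521% and 0.277% of *Prosbeta2* per kilobase. *Rpn12R* had 0 counts in both *aramis* RNAi libraries and 2 and 10 in *bam* RNAi, and DESeq2 gave it no adjusted p. With 3 counts set as the floor of each *aramis* RNAi library, its *bam* RNAi mean was 1.70-fold above that floor. This rests on the second *bam* RNAi library, as 2 counts lie under 3. *Prosbeta5R1*, a copy of the gene for the chymotrypsin-like site, had 0 counts in both *aramis* RNAi libraries and 4 in each *bam* RNAi library, 1.22-fold above that floor. With so few counts, neither fold is a firm lower bound. Apart from these, only single libraries held any reads. *Prosalpha4T2* had 8 counts in the first *bam* RNAi library, *Rpn13R* had 5 in the second, and *Prosalpha1R* had the 2 counts given with *Prosalpha1*. The median log2 fold change of the 5 tested copies was -2.52, which is the value of *Rpt3R*, and -1.86 with *Rpn12R* at the fold from that floor. *Rpn12R* passed the count filter only through its *bam* RNAi counts, so its fold change below 0 was fixed by that filter.

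Because the copies are known mostly from testis, markers of spermatocytes and spermatids were read beside them. Of 19 such genes with counts listed, 12 were tested and 2 fell, *twe*, a Cdc25 phosphatase of meiosis (-1.93), and *topi*, a subunit of the testis meiotic arrest complex (-2.02), where 7.04% of all genes were called lower. The median of the 12 was -0.89, and 1.01 with germline marker scaling. The summed level of the listed markers was 153 and 134 CPM in *aramis* RNAi against 193 and 225 in *bam* RNAi. The largest part of this sum came from 1 gene, *loj*, with 1625 and 1356 counts against 1088 and 1712, so the sum does not stand for the list. Of the markers, 5 (*Mst87F*, *Mst98Ca*, *Mst98Cb*, *djl* and *comr*) were at or under 3 counts in every library. *Rpt3R* and *Rpt6R* were thus read in libraries where these 5 genes were at or near 0. *soti*, *nht*, *fzo* and *schuy* were also low, with at most 10 counts in any library, while *twe*, *topi*, *can*, *aly*, *mia*, *achi*, *bol* and *loj* had more. *can* had 0 and 1 counts in *aramis* RNAi against 20 and 21 in *bam* RNAi (-5.22), and *aly* had 36 and 8 against 61 and 129 (-1.94). Neither of these passed the test. Of the 12 tested markers, 7 had a fold change below 0.

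Genes that work with the proteasome are read beside the 7.04% of all genes called lower. Of 11 assembly, activator and associated genes tested, 1 fell and none rose, with a median of -0.21 that became 1.80 with germline marker scaling. It was *CG8858*, the fly counterpart of the proteasome adaptor ECM29 of yeast, with 361 and 542 normalised counts in *aramis* RNAi against 1342 and 941 in *bam* RNAi (-1.34, DESeq2 adjusted p = 0.0252, edgeR adjusted p = 0.0708). *Pomp*, the chaperone of beta ring assembly, had 1134 and 1007 against 847 and 1271 (0.01, adjusted p = 0.986). A list of 15 genes held those of ubiquitin supply and of substrate delivery, and also *cnc* and *maf-S*. Of these 15, 1 fell and none rose, with a median of -0.65 that turned positive with germline marker scaling. The gene that fell was *maf-S*, the small Maf partner of the transcription factor Cnc, so no gene of ubiquitin supply or delivery passed. *maf-S* had 83.2 and 69.5 against 503 and 125 (-2.04, DESeq2 adjusted p = 0.0168), where the first *bam* RNAi library was far above the second. *cnc* itself, whose mammalian relative Nrf1 drives proteasome genes, had 1942 and 2569 against 3180 and 1836 (-0.15, adjusted p = 0.851), with overlap. Of 8 tested genes of the COP9 signalosome, a complex built like the lid, 1 fell and none rose, with a median of -0.71 and all 8 below 0, though the median was 1.25 with germline marker scaling. It was *CSN6*, with 152 and 222 against 978 and 276 (-1.74, adjusted p = 0.0258, edgeR adjusted p = 0.0577), where the first *bam* RNAi library was more than 3-fold above the second.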

How the data were processed

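RNA was made into libraries with a directional poly(A) kit, with 13 minutes of fragmentation per the labels. The deposited values are raw read counts for each gene, deposited by the authors as a separate unscaled table for each library. The submitters' processing notes list HISAT2 2.1.0, featureCounts 1.4.6, DESeq2 1.24.0 and the dm6 build. The strand setting and annotation of the counting are not given in the sources used here. Total counts ran from 12977013 to 16754980, and 3 counts, used as a floor that covers counting error only, came to between 0.179 and 0.231 CPM (counts scaled to the library total).

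Every gene whose counts over the libraries summed to 10 or more entered a Wald test in DESeq2 (version 1.42.0, R 4.3.3), scaled by median-of-ratios size factors, with genotype as the only term and maximum-likelihood fold changes. Independent filtering was set for an adjusted p of 0.05, and the Benjamini-Hochberg adjustment ran over all genes. The script was tested on simulated data. Groups and replicate numbers came from the labels, and values are mean ± SD with n = 2. Symbols, positions and the length of the longest transcript came from Ensembl release 115 of the same assembly, which held 16647 of the 17023 identifiers, and the others held between 5.52% and 6.66% of a library's counts.

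The members and gene lists were chosen with earlier results of these data known. Genes described singly were those with an adjusted p under 0.05, copies with over 3 counts in a library and their general counterparts, and in each ring, base or lid the most abundant gene per length and those with the highest and lowest fold change. *Prosalpha3*, *Prosalpha6*, *Prosbeta1*, *Prosbeta5*, *Rpt1*, *Rpt2*, *Rpn1*, *Rpn2*, *Rpn8*, *Rpn10*, *Rpn11*, *Pomp*, *cnc*, *Hrd3* and *Alg12* were added after their values were seen or for their known role. Alternatives were edgeR (version 4.0.16), TMM, total-count and germline marker scaling, other count filters, no independent filtering, offsets for transcript length, replicate and crossed blocks, and leaving out each library.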

Additional observations from a re-analysis of the deposited data

How the results depend on the processing

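The count of proteasome genes higher in *aramis* RNAi was 0 and became 29 with germline marker scaling, and it ran from 0 to 2 when a library was left out (*Prosbeta1* and *Prosbeta6* without the second *bam* RNAi library). The count lower was 3 and became 0 with germline marker scaling, 7 with total-count scaling (adding *Rpn5*, *Rpn10*, *Rpt1* and *Rpt6*) and 6 with crossed replicate pairs (adding *Rpn5*, *Rpn10* and *Rpt1*), and it ran from 0 to 5 when a library was left out, with 0 without the first *aramis* RNAi library, 1 without the second, 5 without the first *bam* RNAi library and 4 without the second. The median log2 fold change of the general genes was 1.62 with germline marker scaling, -0.70 with total-count scaling and between -0.34 and -0.23 when a library was left out. That of the copies was -0.54 with germline marker scaling and between -2.88 and -1.86 when a library was left out. The -1.86, without the second *bam* RNAi library, was over 4 copies. Germline marker scaling, which moved the median of all genes to 1.85, reversed *Rpt5* (0.51), *Prosalpha4* (1.63), *Rpt4* (1.58), *Rpn9* (1.94), *Rpn5* (1.13), *Rpn13* (1.21), *Rpt3* (1.45), *Rpt6* (1.17) and *Rpn12* (1.61), and the copies *Rpt4R* (1.17) and *Prosbeta2R2* (0.09), which no setting called, also changed sign. Deviations of same-numbered libraries had a correlation of -0.54 over 7883 genes, so the numbers do not pair the libraries. With a replicate block 2 genes were lower, *Rpt3R* and *Rpt6R*, with *Rpt5* at an adjusted p of 0.114 (-1.38), and edgeR with the replicate block, added after the data were seen, also gave 2. TMM scaling, other count filters, no independent filtering and length offsets kept *Rpt3R*, *Rpt5* and *Rpt6R*. With 2 libraries a group and few reads, the depth limits what can be said of the copies other than *Rpt3R*.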
